A study of Oryza sativa with 18 samples.

Results

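SDR4, a seed dormancy gene, was higher in csa mutant rice embryos at 3 h of imbibition, while a pair of protein phosphatase 2C genes was higher and an AREB1-like factor gene was lower in the mutant at 6 h. These 4 genes were taken by locus identifier from the 3149 genes that the authors' tables list at any time: SDR4 (LOC_Os07g39700), PP2C59 (LOC_Os06g48300), BIPP2C2 (LOC_Os03g55320) and the AREB1-like gene (LOC_Os06g10880). They were picked because the authors had called them in these same contrasts, so their differences are given as descriptions and without a test. Each is listed at 1 time only: 1 of the 4 at 3 h, 3 at 6 h and 0 at 12 h. A gene enters a table only where its log2 fold change reaches 1 in either direction at a false discovery rate (FDR) of at most 0.05, and the counts of the members at the other times were not analysed here.

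Abscisic acid is the hormone that holds a mature seed dormant and slows germination. In the core pathway, receptors of the PYL family bind the hormone and then block protein phosphatases 2C of one subgroup, which otherwise keep SnRK2 kinases switched off. Freed SnRK2 kinases phosphorylate bZIP factors of the ABF/AREB type, and these bind ABA-responsive elements in the promoters of dehydrin, late embryogenesis and other seed genes. SDR4 (Seed dormancy 4) acts beside this pathway in rice as a regulator of seed dormancy and is itself known to depend on the seed factor VP1.

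The 18 samples are total RNA from rice (Oryza sativa) embryos during germination, of the wild type line 9522 or the csa mutant, taken 3 h, 6 h or 12 h into imbibition, with 3 samples in each of the 6 groups. CSA encodes an R2R3 MYB factor known for sugar partitioning to the anther, and the study set mutant against wild type at each time. Seeds of both genotypes were surface-sterilized and imbibed in MS solution under a light and dark cycle with no further treatment in the labels, and 5 seeds went into each extraction. The sources used here give neither the csa allele nor whether replicates were separate plants or seed lots, so the errors below may be technical. The labels name the embryo as the tissue, while the extraction is described for seeds.

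Scaled counts are raw reads divided by library factors recovered from the tables, which lay between 0.920 and 1.10, and a positive log2 fold change means a higher mean scaled count in csa. Depth over all genes is unknown, because the tables hold called genes only. CSA itself (LOC_Os01g16810) had 92, 81 and 201 raw reads in csa embryos and 310, 305 and 380 raw reads in wild type embryos at 6 h, a log2 fold change of -1.38 ± 0.40 (SE, n = 3 per group). The 201 reads came from csa replicate 3, and CSA was not examined here at 3 h or 12 h. Within each time, csa replicate 2 at 3 h, csa replicate 3 at 6 h and csa replicate 2 at 12 h stood farthest from their groups, with a median absolute log2 distance of 0.547, 0.496 and 0.565 from the other csa libraries. Of all called genes, 71.0% were higher in csa at 3 h and 58.4% at 6 h, the background for the directions of the gene lists below. Wild type replicate 3 at 12 h names the mutant in its genotype field and was grouped by its title.

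SDR4 lies on chromosome 7 (Os07g0585700) and is annotated in the table as a zinc finger protein of pre-harvest sprouting resistance. At 3 h it had 465, 955 and 450 reads in csa embryos and 121, 136 and 129 reads in wild type embryos. All 3 mutant libraries lay above all 3 wild type libraries, and the lowest mutant value was 3.47 times the highest wild type value after scaling. Such separation, here and for the genes below, is favoured by the selection of called genes. Its share over all listed genes was not counted. Of the pathway and marker genes drawn below, LOC_Os09g26620 at 3 h alone overlapped between genotypes. Mean scaled counts were 644 ± 315 in csa and 125 ± 5.79 in wild type (SD, n = 3), a 5.14-fold higher level and a log2 fold change of 2.36 ± 0.41 (SE). In the authors' deposited table its FDR was 2.17e-15. By the authors' p-value it ranked 20 among the 746 genes higher in csa at 3 h, and by the size of the change 76, against a median log2 fold change of 1.41 for those 746. Of the genes tested at 3 h, 4.91% were called and 3.49% were called higher in csa. SDR4 was selected from those calls, so its own call adds nothing to that share.

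The spread of SDR4 was unequal between the genotypes. The wild type libraries varied by 4.61% (coefficient of variation), less than the 8.82% that read counting alone would give at this depth. The csa libraries varied by 48.9%, against 4.01% from counting. Csa replicate 2 was the high library, 1.12 log2 units above the mean of the other csa libraries. It was also the highest csa library for 68.8% of the 746 genes higher in csa, where it stood a median of 0.51 log2 units above the others. Without it the SDR4 log2 fold change was 1.88, or 3.69-fold, and the other csa libraries, at 469 and 456 scaled counts, still lay above every wild type library. Whatever sets this library apart was not tested.

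**Figure D1:**
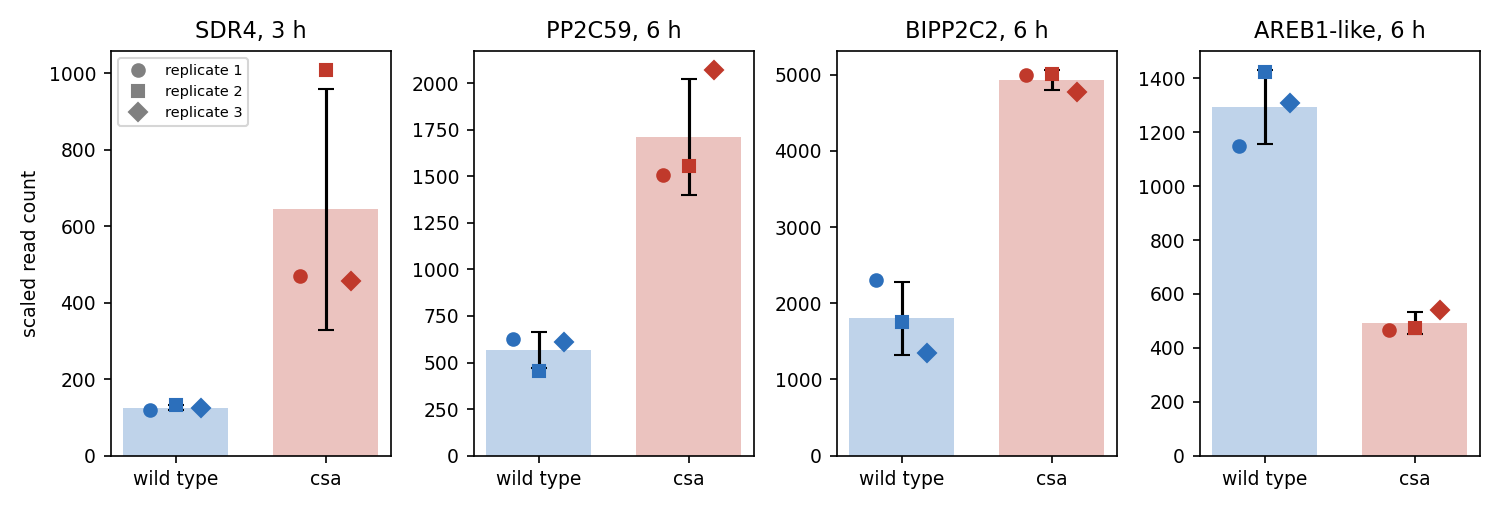
Scaled read counts (y axis, from 0) of the 4 genes in the wild type and csa libraries at the time each is listed; bars are group means, error bars SD with n = 3, and symbols mark the replicate number. SDR4, PP2C59 and BIPP2C2 are higher in every csa library and the AREB1-like gene is lower in every csa library, with SDR4 in csa replicate 2 standing at 1008.

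Both phosphatase genes were higher in csa embryos at 6 h. PP2C59 and BIPP2C2 take these names, and for BIPP2C2 also PP2C34, from RefSeq. The tables annotate them only as protein phosphatase 2C family genes, and nothing in the tables ties them to abscisic acid. The rice family is large, and phosphatases outside the subgroup that binds PYL receptors have other known roles. Whether these members belong to that subgroup was not tested.

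PP2C59, on chromosome 6 (Os06g0698300), had 1450, 1479 and 2155 reads in csa embryos and 622, 436 and 676 reads in wild type embryos. The genotypes did not overlap, with csa replicate 3 the highest and wild type replicate 2 the lowest library. Mean scaled counts were 1710 ± 313 in csa and 565 ± 96.4 in wild type (SD, n = 3), a 3.03-fold higher level and a log2 fold change of 1.60 ± 0.21 (SE). The coefficients of variation were close, 18.3% in csa and 17.1% in wild type. Csa replicate 3 was also the highest csa library for 58.9% of the 1395 genes higher in csa at 6 h. Without that library the PP2C59 log2 fold change was 1.44.

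BIPP2C2, on chromosome 3 (Os03g0761100), had 4815, 4768 and 4968 reads in csa embryos and 2287, 1681 and 1483 reads in wild type embryos. Here the csa libraries were nearly level and the wild type libraries were spread out, the reverse of SDR4 at 3 h. Mean scaled counts were 4928 ± 134 in csa and 1802 ± 484 in wild type (SD, n = 3), a 2.74-fold higher level and a log2 fold change of 1.45 ± 0.23 (SE). The coefficient of variation was 2.72% in csa and 26.9% in wild type. Wild type replicate 1 was the high library, as it was for 66.8% of the 1395 higher genes, and the log2 fold change was 1.67 without it. Without wild type replicate 3, the low library, it was 1.28.

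In the authors' deposited table the FDR was 6.20e-12 for PP2C59 and 6.33e-09 for BIPP2C2. Their log2 fold changes stood close to the median of 1.44 over the 1395 genes higher in csa at 6 h, at rank 559 and rank 686 by size. By p-value they ranked 53 and 135. At 6 h, 10.3% of the genes tested were called, 6.03% higher and 4.3% lower in csa, and the rule drew the members from these calls.

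The AREB1-like gene, on chromosome 6 (Os06g0211200), is annotated as similar to an abscisic acid responsive elements-binding factor, the bZIP type at the end of the kinase cascade. At 6 h it had 448, 451 and 563 reads in csa embryos and 1139, 1366 and 1445 reads in wild type embryos. All 3 csa libraries lay below all 3 wild type libraries, and the lowest wild type value was 2.13 times the highest csa value after scaling. Mean scaled counts were 493 ± 41.4 in csa and 1294 ± 137 in wild type (SD, n = 3), which puts csa at 38.1% of wild type, with a log2 fold change of -1.39 ± 0.11 (SE). The FDR was 1.92e-13 in the authors' deposited table. It ranked 13 by p-value among the 993 genes lower in csa at 6 h and 486 by size, beside a median log2 fold change of -1.38 for those genes.

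This gene had the smallest standard error of the 4, with coefficients of variation of 8.40% in csa and 10.6% in wild type. Csa replicate 3 was its highest csa library, at 541 scaled counts, although that library was the highest of its group for only 16.8% of the 993 lower genes and stood a median of 0.45 log2 units below the others there. Its log2 fold change lay between -1.47 and -1.32 with any single library left out.

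**Figure D2:**
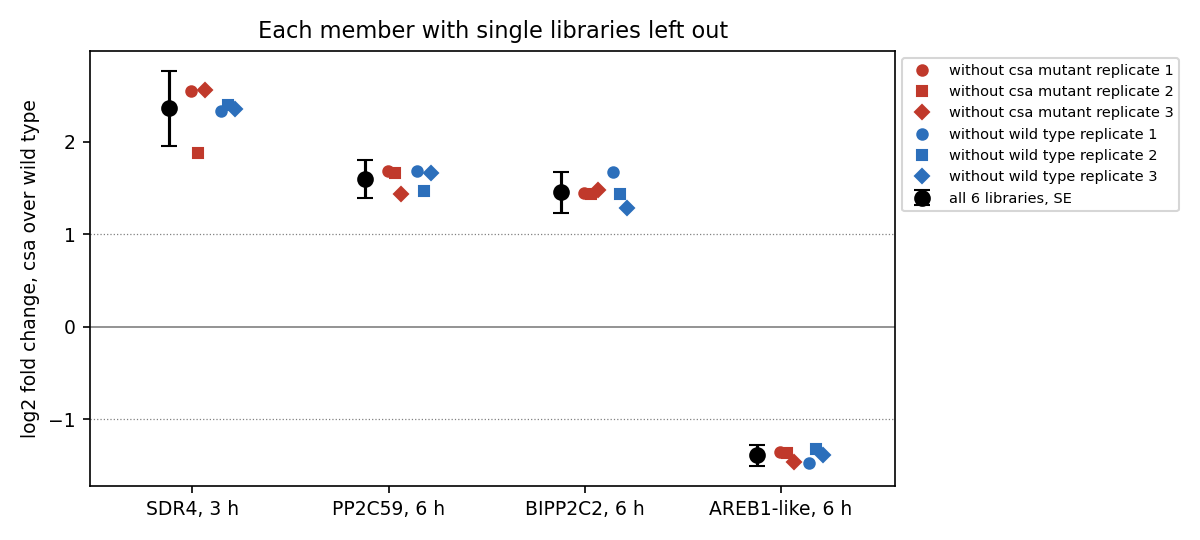
Log2 fold change of csa over wild type (y axis) for each gene with all 6 libraries (black, bars are SE) and with each csa (red) or wild type (blue) library left out; dotted lines mark the tables' threshold of 1 in either direction. The values range from 1.88 to 2.56 for SDR4, 1.44 to 1.68 for PP2C59, 1.28 to 1.67 for BIPP2C2 and -1.47 to -1.32 for the AREB1-like gene.

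**Figure D3:**
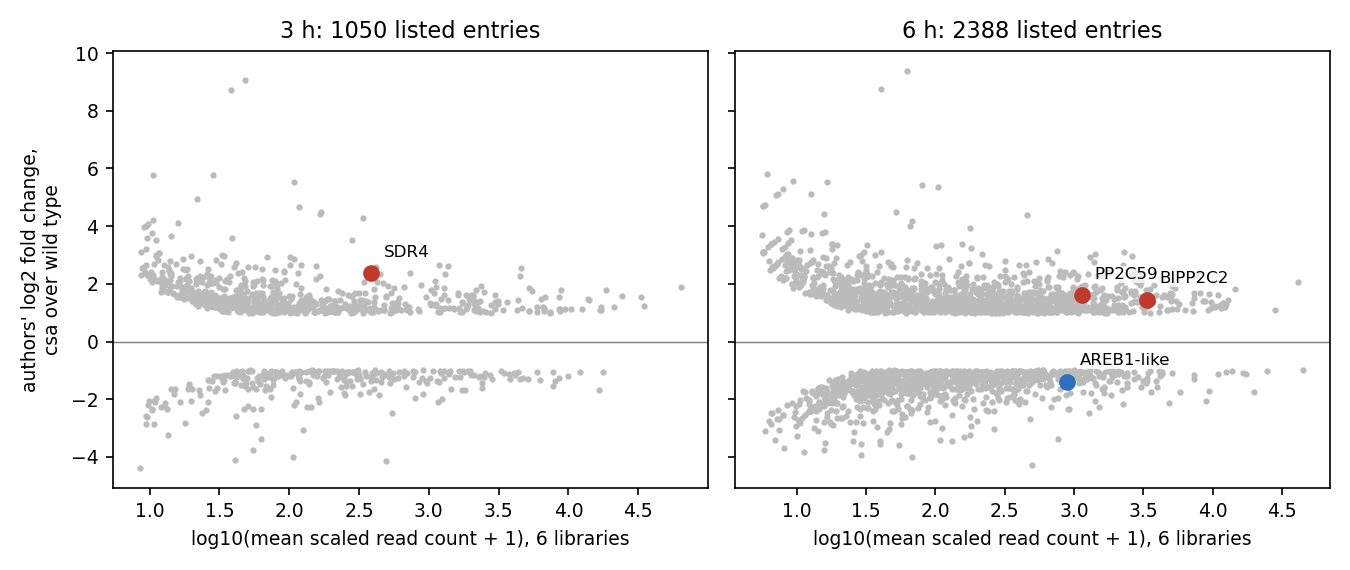
The authors' log2 fold change (y axis) against the log10 of the mean scaled read count plus 1 (x axis) for the 1050 entries listed at 3 h and the 2388 at 6 h, with the 4 genes marked. Genes between -1 and 1 are not listed, SDR4 lies toward the upper edge of the 3 h cloud, and the 3 genes at 6 h lie in the middle of the changes listed at their level.

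The genes most like each member were taken by the Pearson correlation of log2(scaled count + 1) over the 6 libraries of that time, which share library effects and the genotype difference. For SDR4, compared with 1049 other entries, the closest was a conserved hypothetical gene (LOC_Os05g27780, r = 0.999), followed by NCED3 (LOC_Os03g44380, r = 0.997), whose product makes the precursor of abscisic acid. NCED3 averaged 134 scaled counts in csa and 23.7 in wild type. A further conserved hypothetical gene (LOC_Os07g47840) had r = 0.996. All 3 of these genes, like SDR4, were highest in csa replicate 2.

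At 6 h each member was compared with 2387 other genes. PP2C59 was closest to a mitochondrial carrier gene (LOC_Os01g12470), a DUF231 domain gene (LOC_Os01g65800) and a NifU-like gene (LOC_Os09g30410), each with r = 0.997. The NifU-like gene had only 9, 11 and 19 reads in csa embryos and 2, 1 and 2 reads in wild type embryos, so its correlation rests on low counts. BIPP2C2 was closest to a rubber elongation factor family gene (LOC_Os05g05940), a conserved hypothetical gene (LOC_Os06g04390) and an EF hand gene (LOC_Os08g44390), each with r = 0.999. The AREB1-like gene was closest to a pathogen-induced defence gene (LOC_Os08g05960, r = 0.998), to the auxin-conjugating GH3.4 gene (LOC_Os05g42150, r = 0.998) and to a hypothetical conserved gene (LOC_Os07g37290, r = 0.997). GH3.4 averaged 104 scaled counts in csa and 288 in wild type. No gene was among the closest 3 of more than 1 member, which says little about the members. SDR4 was compared at another time, and the AREB1-like gene went the opposite way to the phosphatase genes.

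**Figure D4:**
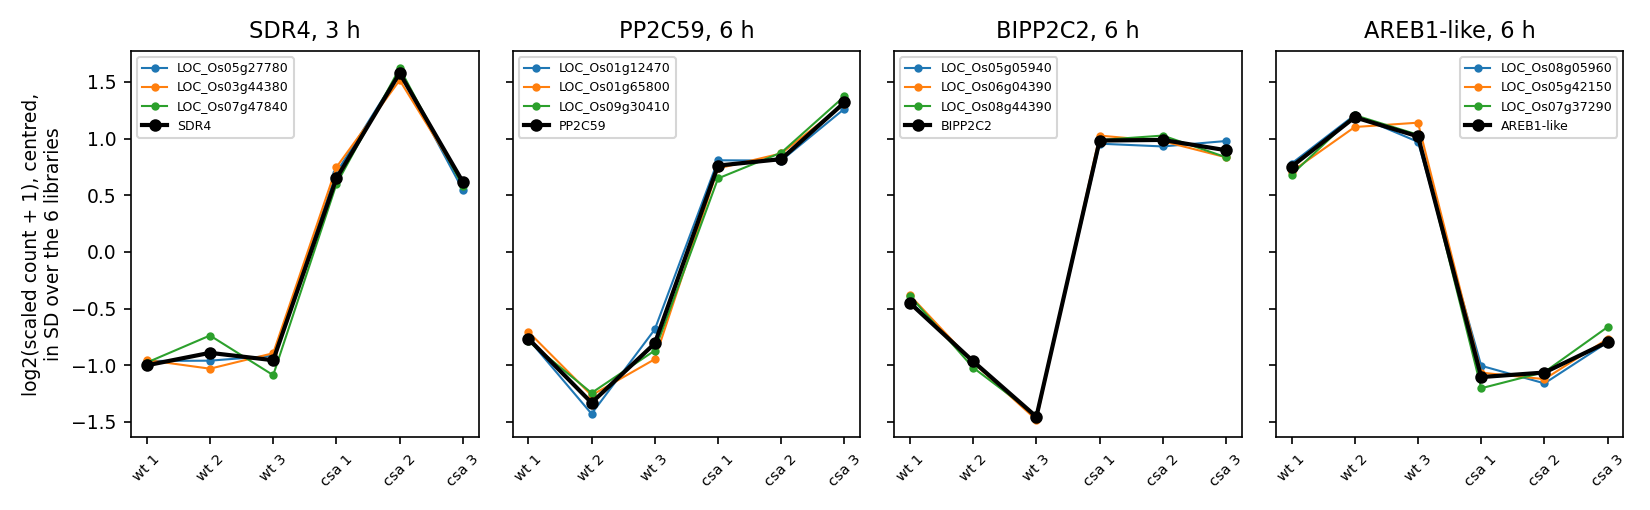
Log2(scaled count + 1) in each of the 6 libraries, centred and divided by the SD over the libraries (y axis), for each gene (black) and the 3 listed genes most correlated with it (colours). The SDR4 panel peaks at csa replicate 2, the PP2C59 panel at csa replicate 3, and the BIPP2C2 panel is level over the csa libraries and spread over the wild type libraries.

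Other genes of the pathway were drawn by search terms on the annotation text and on RefSeq names, ordered here from receptor to factor. The abscisic acid receptor gene PYL5 (LOC_Os05g12260), also named PYL11 in RefSeq, was higher in csa at 6 h, with 1033, 1005 and 1349 reads in csa embryos and 572, 378 and 421 reads in wild type embryos. The groups did not overlap, and the log2 fold change was 1.34 ± 0.23 (SE, n = 3 per group). RefSeq gives a receptor name to 1 gene only, so how many other receptor genes were tested is not known from names.

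Among phosphatases, RefSeq names 61 genes as protein phosphatase 2C, and 6 of them were called at 6 h, 5 higher and 1 lower in csa. That is 9.84% of the named genes, beside 10.3% of all genes tested, so the family was called about as often as genes in general, although how many of the 61 were tested is not known. Besides PP2C59 and BIPP2C2, PP2C32 (LOC_Os03g18150) stood at 1.92 ± 0.11 and PP2C29 (LOC_Os03g10950) at 1.72 ± 0.42. PP2C36 (LOC_Os03g61700), whose table annotation names a nucleic acid-binding domain instead, stood at 1.01 ± 0.12, and PP2C01 (LOC_Os01g07090) at -1.10 ± 0.26. The lower call of PP2C01 was lost in an edgeR refit without csa replicate 3. That refit kept 1685 of all 2388 entries listed at 6 h. The refit without csa replicate 2 at 3 h kept 653 of 1050, so losses below stand beside these shares. Leaving out wild type replicate 2 at 6 h kept fewer, 1571, so lost calls are not particular to the outlying csa library. For the list genes only the csa refits were examined.

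At 3 h, 1 of the 61 named genes was called, or 1.64%, beside 4.91% of all genes tested. This was PP2C68 (LOC_Os09g15670), also named PP108, at 1.67 ± 0.36. It had 1651, 3120 and 2416 reads in csa embryos and 564, 789 and 1035 reads in wild type embryos, again with csa replicate 2 the highest. At 12 h it was PP2C29, with 253, 256 and 280 reads in csa embryos and 105, 96 and 175 reads in wild type embryos and a log2 fold change of 1.11 ± 0.31. The highest of those wild type values came from the sample whose genotype field names the mutant. At 12 h the 1 call among the 61 named genes is 1.64%, beside 0.4% of all genes tested, too few calls to set the family apart.

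RefSeq names 10 SAPK genes, the rice SnRK2 kinases, of which 1 was called at 3 h and 2 at 6 h, all higher in csa. Beside 4.91% and 10.3% of all genes tested that were called, and with most calls higher in csa, these counts are too small to set the family apart. SAPK3 (LOC_Os10g41490) stood at 1.26 ± 0.34 at 3 h, and SAPK5 (LOC_Os04g59450) and SAPK9 (LOC_Os12g39630) at 1.42 ± 0.29 and 1.52 ± 0.45 at 6 h. SAPK9 had 205, 181 and 298 reads in csa embryos and 111, 34 and 102 reads in wild type embryos, so its wild type level leaned on a low replicate 2. All 3 calls were kept without the library farthest from its group, where 653 of 1050 entries were kept at 3 h and 1685 of 2388 at 6 h.

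The bZIP genes were called in both directions at 6 h, 3 higher and 2 lower, close to the 58.4% higher over all calls. Of 20 bZIP genes named in RefSeq, 2 were called at 6 h, or 10.0%, beside 10.3% of all genes tested. The AREB1-like gene was the one with the smallest FDR, and the other lower gene was bZIP37 (LOC_Os04g54474), at -1.23 ± 0.21 from counts of 9 to 33. The higher genes were bZIP60 (LOC_Os07g44950) at 1.02 ± 0.24, LOC_Os01g36220 at 1.31 ± 0.36 and LOC_Os03g56010 at 1.58 ± 0.31. LOC_Os03g56010 was also the bZIP gene called at 3 h, at 1.16 ± 0.16 from counts of 13 to 37, and that call was lost in an edgeR refit without csa replicate 2. Among these bZIP genes the annotation ties the AREB1-like gene alone to abscisic acid.

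**Figure D5:**
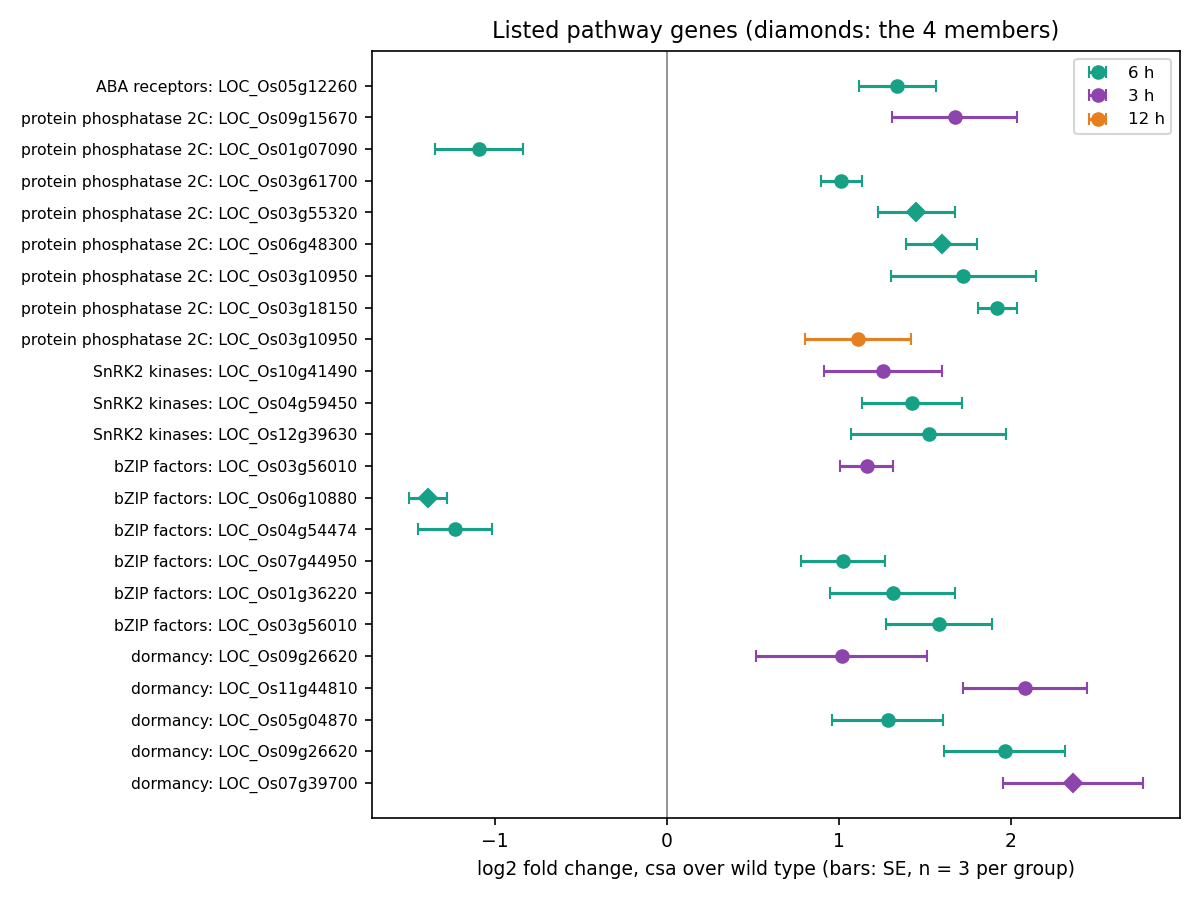
Log2 fold change of csa over wild type (x axis, bars are SE with n = 3 per group) for every listed receptor, phosphatase, SnRK2, bZIP and dormancy gene, coloured by time, with diamonds for the 4 genes described here and SDR4 set with the dormancy genes by its known role. The entries left of 0 are PP2C01, bZIP37 and the AREB1-like gene, all at 6 h.

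Of the genes annotated for dormancy, 2 were called at 3 h and 2 at 6 h, all higher in csa, where 71.0% and 58.4% of all calls were higher, so the direction of so few genes says little about the group. At 3 h a dormancy-associated protein gene (LOC_Os11g44810) had 1455, 2492 and 1246 reads in csa embryos and 416, 501 and 381 reads in wild type embryos, a log2 fold change of 2.08 ± 0.36. Like SDR4, it had its highest value in csa replicate 2 and no overlap between genotypes. A dormancy and auxin associated family gene (LOC_Os09g26620) stood at 1.02 ± 0.50 at 3 h, where the genotypes overlapped and the call was lost in a refit without csa replicate 2, and at 1.97 ± 0.35 at 6 h. A dormancy related gene (LOC_Os05g04870) stood at 1.28 ± 0.32 at 6 h. These annotations name families that mark resting tissue in other plants, and a role in seed dormancy is not given by the tables.

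Among genes named for abscisic acid, the PM19-like membrane protein gene (LOC_Os05g31670), induced by the hormone, stood at 1.76 ± 0.31 at 3 h. The terms for B3 and AP2 factors caught 1 gene at 3 h and 2 at 6 h, all higher in csa, and VP1 was not among them. Over all genes tested, 4.91% and 10.3% were called at these times, and 71.0% and 58.4% of the calls were higher. So few genes say little about the group. RefSeq names 1 gene by these terms, and 0 genes so named were called, so the size of the list is not known. The 3 h gene, annotated Viviparous-14 (LOC_Os12g42280, 2.64 ± 0.25), is named after the maize enzyme of abscisic acid synthesis and is not a factor. The 6 h genes were a viviparous8-like gene (LOC_Os03g57660) at 1.27 ± 0.27, RefSeq PLA3, and a putative B3 domain gene (LOC_Os08g23570) at 1.22 ± 0.27. The annotation of the viviparous8-like gene names no B3 or AP2 factor either, so the B3 domain gene alone is annotated as one.

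The labelled tissue was set against markers in the tables. Called oleosin and dehydrin genes, which mark the embryo and are typical targets of the pathway, numbered 9 at 3 h and 9 at 6 h, all higher in csa, and 0 at 12 h. Over all genes tested 4.91%, 10.3% and 0.4% were called at these times, and 71.0% and 58.4% of the calls at 3 h and 6 h were higher. Their summed scaled counts ran from 53124 to 100117 in csa and from 29735 to 34388 in wild type at 3 h, and from 36010 to 47527 against 11354 to 17539 at 6 h. Only called genes enter these sums, so a difference between genotypes follows from the selection. Markers that did not change are not listed and could not be counted. Among the called markers, RAB16D (LOC_Os11g26750) stood at 2.33 ± 0.31 and the DHN1-like gene (LOC_Os11g26570) at 1.43 ± 0.30 at 3 h. The called oleosin genes stood lower at 3 h, between 1.10 and 1.15. At 6 h the oleosin term also caught a steroleosin-like gene (LOC_Os03g62590), at 1.10 ± 0.27. A dehydrin gene (LOC_Os01g12580) stood at 1.54 ± 0.29 at 3 h and 2.30 ± 0.30 at 6 h. Without the library farthest from its group, 6 of the 9 were kept at 3 h and 8 of the 9 at 6 h. Over all listed entries these refits kept 653 of 1050 at 3 h and 1685 of 2388 at 6 h.

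Glutelin and prolamin genes, markers of the endosperm, were also listed, 4 at 3 h, 2 at 6 h and 1 at 12 h, all higher in csa beside the same shares over all genes. In edgeR refits without the library farthest from its group, 1 of the 4 calls at 3 h (LOC_Os02g15178) and both calls at 6 h (LOC_Os01g02150 and LOC_Os01g42200) were lost. Over all listed entries these refits kept 653 of 1050 at 3 h and 1685 of 2388 at 6 h. Their summed scaled counts were 5122 to 6665 in csa and 2116 to 2591 in wild type at 3 h, and 320 to 517 against 165 to 207 at 6 h. These sums also hold called genes only, so their difference follows from the selection. The 12 h gene was a glutelin gene (LOC_Os02g14600), at 2.17 ± 0.48. No listed marker of either tissue was at 0 in any library. These called markers were higher in csa, as were SDR4, PP2C59 and BIPP2C2, while the AREB1-like gene was lower at 6 h (-1.39). All of these genes are listed only because they were called, so shared or opposite directions among them were not weighed. The part of the markers in the differences of the members was not tested. In whole-tissue RNA, more cells of a type and more RNA per cell cannot be told apart.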

How the data were processed

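The authors deposited raw read counts per gene for called genes only, each with its log2 fold change, p-value and FDR, per the file headers. DESeq2 is named in the submitters' processing notes. The sources used here do not name the aligner, the read counter, the build, or how strand and multi-copy genes were handled.

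Library factors were recovered by least squares (scipy 1.17.1) so that mean scaled counts return the deposited log2 fold change (genes with 30 or more reads per group; residual SD on the log2 scale 8.52e-04 at 3 h, 0.00248 at 6 h and 0.00250 at 12 h). The number of genes tested, 21397, 23117 and 21242, was recovered from the ranks that p and FDR imply. Errors of log2 values are standard errors from the replicate spread. Listed genes were refitted with edgeR 4.0.16 (quasi-likelihood) and DESeq2 1.42.0 in R 4.3.3, where a call is kept with the same direction, a log2 fold change of at least 1 in size and a p-value up to the largest deposited. The factor recovery and the edgeR fit were run on simulated counts of a single fixed dispersion. Those runs did not cover DESeq2 and say little about genes as variable as SDR4 in csa. RefSeq (ASM3414082v1) served for names only and matched all 4 members, and 78.7%, 79.2% and 85.9% of entries.

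The members and lists were chosen with earlier results of these data known. Named genes are the members, the 3 most correlated genes of each, up to 4 genes per list and time by FDR (all phosphatase and bZIP genes, chosen after their values were seen), CSA and listed genes within 5 locus steps.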

Additional observations from a re-analysis of the deposited data

How the results depend on the processing

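The direction of all 4 members held under every alternative run, and 55 of 64 alternative log2 fold changes moved by less than the replicate SD. Several of the 64 could differ little, and under the other scalings a reversed direction was hardly possible. Their median shifts, given below, were smaller in size than each member's own change. At 6 h they were also below the listing threshold of 1, so the share of genes higher in csa could barely move. The library factors were fitted to return the deposited log2 fold change, which is itself among the alternatives, and the edgeR and DESeq2 refits reused those factors. TMM and median-of-ratios factors computed on the listed genes gave 1.06 and 1.25 for SDR4, 1.02 and 0.86 for PP2C59, 0.87 and 0.73 for BIPP2C2, and -1.99 and -2.15 for the AREB1-like gene. By construction they centre a table of called genes: the median of all listed genes shifted by -1.24 and -1.03 at 3 h and -0.59 and -0.74 at 6 h, and the share of listed genes higher in csa at 3 h went from 71.0% to 46.4% under TMM and 66.0% under median of ratios, while at 6 h it was 58.4% under all 3 scalings. Leaving out single libraries gave 1.88 to 2.56, 1.44 to 1.68, 1.28 to 1.67 and -1.47 to -1.32, in the same order, and kept all members (1 at 3 h, 3 at 6 h). With the replicate number as a block, edgeR gave 2.26, 1.60, 1.49 and -1.39 and kept the same members, with 1007, 2313 and 36 listed genes kept at 3 h, 6 h and 12 h against 1004, 2276 and 39 without it. Deviations of same-numbered libraries correlated between -0.21 and 0.29 and not every library matched its own number best, so the numbers were not taken as pairs.

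With a log2 fold change of at least 2 in size required, 0 of the 3 members at 6 h remained. Of the lists, 1 dormancy gene, 1 embryo marker and the Viviparous-14 gene of the B3 and AP2 list (1) remained at 3 h, 2 embryo markers at 6 h and 1 endosperm marker at 12 h, with 0 receptor, phosphatase, SnRK2 and bZIP genes, 0 dormancy genes at 6 h, 0 B3 and AP2 genes at 6 h, 0 genes named for abscisic acid, and 0 endosperm markers at 3 h and 6 h. Chosen after seeing the data, refits without the library farthest from its group lost PP2C01 (0 lower phosphatases), the 3 h bZIP gene (0), 1 of 2 dormancy genes at 3 h (1 kept) 1 of 4 endosperm markers at 3 h and both at 6 h (0). Those refits kept between 0 and 8 genes per list and direction, beside 653 of 1050 listed entries at 3 h and 1685 of 2388 at 6 h. Depth over all genes is unknown, and replicate spread sets the precision.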

Other observations

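Few listed genes lay within 5 locus steps of a member, and they did not move one way. Beside SDR4 an esterase gene (LOC_Os07g39740) stood at 2.23 ± 0.42 at 3 h, from 22, 47 and 56 raw reads in csa embryos and 12, 8 and 8 raw reads in wild type embryos, and a hypothetical gene (LOC_Os07g39720) at -1.34 ± 0.46 at 6 h. The locus next to PP2C59, an RNA recognition motif gene (LOC_Os06g48310), stood at 1.89 ± 0.23 at 6 h, from 53, 75 and 81 raw reads in csa embryos and 23, 15 and 20 raw reads in wild type embryos. An Exo70 exocyst gene (LOC_Os06g48330) stood at -1.20 ± 0.22 at 3 h.

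Near BIPP2C2, a subtilisin-like protease gene (LOC_Os03g55350) went against it, at -1.36 ± 0.24 at 3 h and -1.01 ± 0.15 at 6 h, and a pentatricopeptide repeat gene (LOC_Os03g55340) stood at 1.07 ± 0.41 at 6 h. The AREB1-like gene had 0 listed genes within 5 locus steps at 3 h, 6 h or 12 h. The sources used here do not say whether reads of adjoining genes were told apart by strand.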
